A study of Saccharomyces cerevisiae with 23 samples.

Results

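The genes described here are 59 of the 6002 nuclear protein-coding genes of Saccharomyces cerevisiae, chosen by name as essential parts of 3 kinds of machine. They comprise the 8 subunits of the chaperonin TRiC, 28 subunits of the proteasome (13 of the 20S core and 15 of the 19S regulatory particle, 8 in its base and 7 in its lid) and 23 subunits of the RNA polymerases. The polymerase genes fall into 2 of Pol I, 5 of Pol II, 10 of Pol III and 6 that more than one enzyme shares. A haploid cell carries a single copy of each and is not expected to survive its loss, which is why the places where a transposon was found in these genes were counted. The rule is a list of names and uses no site count. All 59 were found in the gene table, RPB6 under its other symbol RPO26, and 2 further essential subunits, RPA43 and RPC10, are not among them. The other genes they are set against below are the remaining 5943, whether essential or not, RPA43 and RPC10 included.

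Ty1 is a retrotransposon that copies its RNA into DNA and inserts the copy into the genome, and its known main targets are the stretches upstream of genes that RNA polymerase III transcribes, tRNA genes above all. TRiC is a ring-shaped chamber in which actin, tubulin and other proteins fold. The 20S proteasome is a barrel that cuts proteins, and the 19S particle caps it, recognises ubiquitin-tagged proteins and threads them in. Pol I makes the large ribosomal RNAs, Pol II makes messenger RNAs, and Pol III makes tRNAs and other small RNAs. Rpc40, a subunit of Pol I and Pol III, is known to bind the Ty1 integrase, so some of these genes encode machinery that guides Ty1 itself.

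Insertions were profiled in 2 libraries of genomic DNA, 1 from galactose and 1 from dextrose. Both came from BY4741, a haploid laboratory strain (MATa his3delta1 leu2delta0 ura3delta0 met15delta0) carrying the plasmid pJEF2365. Cells were precultured in 2% raffinose with 0.1% dextrose and held for 24 h in 2% galactose or in 2% dextrose. Both cultures then grew for 24 h in dextrose. Next came 24 h in dextrose with 5-FOA at 1 mg/mL, a compound toxic to cells that express URA3, and this step was repeated. Another 21 samples of the series, from nucleosome mapping, were not analysed here. The labels name complete medium in one field and medium without uracil in another for the sugar step, and they do not say whether a library came from more than 1 culture.

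A site was a distinct chromosome, strand and 5′ end of an aligned interval. The galactose library held 170698 intervals and 152129 nuclear sites, and the dextrose library held 11577 intervals and 11208 nuclear sites. Only positions more than 2 kb from every one of the 275 nuclear tRNA genes were counted, which left 69370 galactose and 7974 dextrose sites. Sites were kept apart by the length of their interval, since the classes lie in different places: 32.3% of the galactose sites with an interval of 96 bases lay beyond 2 kb of tRNA genes, against 64.8% of those with an interval of 50 to 95 bases. Duplicates had been removed, and no position carried more than 1 interval of 96 bases in either library. A site therefore says that an interval was read there and not how many cells held it. With 1 library per medium there is no replicate spread and no test. The 95% intervals below cover counting error only.

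The distance rule left 55 of the 59 genes with body positions to count. The bodies of 50 were whole, 5 were counted in part (RPT6, RPA135, RPC34, RPC40 and CCT8), and 4 lay wholly within 2 kb of a tRNA gene (RPT2, RPN7, PRE1 and RPC17). The counted bodies summed to 75152 of 82551 bases. Gene lengths ran between 213 bp for RPB10 and 5202 bp for RPO21, with a median of 1008 bp, against 1203 bp in the other coding genes. Upstream, the 1 kb before the start codon could be counted in 53 genes, 52568 bases in all.

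Sites were found inside these essential genes in galactose at somewhat less than the level of other genes when the interval had 96 bases, and at about that level when it was shorter. The 55 bodies held 89 sites with a 96-base interval, 1.18 per kb (95% interval 0.951 to 1.46), against 13090 sites and 1.60 per kb in the other coding genes. The ratio was 0.741 (95% interval 0.595 to 0.912). With 5 kb kept from tRNA genes in place of 2 kb it was 0.819 and its interval included 1 (0.648 to 1.02). At least 1 such site lay in 39 of the 55 genes, 70.9%, where 74.7% of all 5688 coding genes with counted positions had one. The median gene differed less than the sum: it had 1.25 sites per kb among the essential genes and 1.29 per kb among the others, in which a single gene held up to 80 sites.

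Sites with an interval of 50 to 95 bases gave another picture. There were 303 of them in the 55 bodies, 4.03 per kb (95% interval 3.59 to 4.51), against 3.69 per kb in the other genes, a ratio of 1.09 (95% interval 0.974 to 1.224). They occurred in 50 of the 55 genes, beside 85.4% of all coding genes. Intervals of at most 49 bases were rare, with 12 sites in 10 of the genes, beside 21.5% of all coding genes. Over all lengths the bodies held 394 sites in 52 genes (92.0% of all coding genes had one), 5.24 per kb against 5.35 per kb, a ratio of 0.981 (95% interval 0.886 to 1.08). Set against all other genes, the lower level was therefore seen with the 96-base intervals and not with the intermediate ones. Intermediate lengths also made up more of what was read in these bodies, 80.5% of 524 intervals against 74.1% in the other coding stretches, and their part in the ratio over all lengths was not tested.

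**Figure D1:**
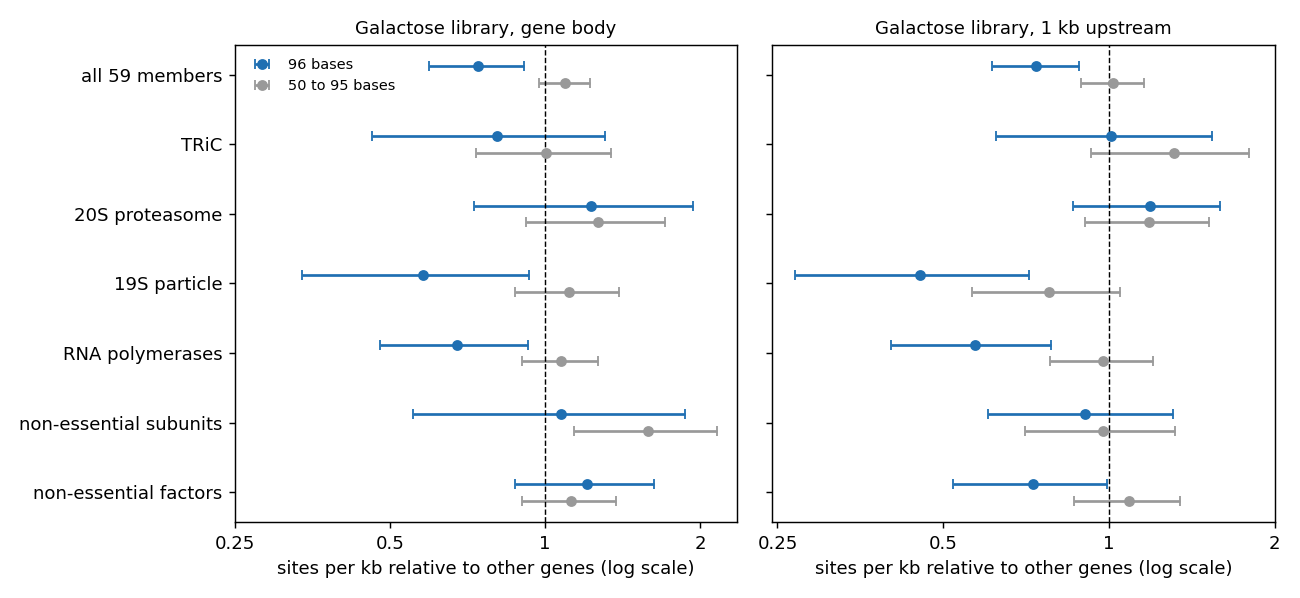
Sites per kb in each set of essential genes and in their listed non-essential partners, divided by sites per kb in the other coding genes, for gene bodies (left) and the 1 kb upstream (right) in galactose, on a log axis. Bars are 95% counting intervals, blue for 96-base and grey for intervals of 50 to 95 bases. In bodies the 96-base values of the 19S particle (0.580) and the polymerases (0.675) lie below 1 with their whole bar, and that of the 20S core (1.23) does not.

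The 96-base levels of the complexes ran from 0.580 to 1.23 of that of other genes, with 95% intervals that overlapped. TRiC bodies held 16 sites of 96 bases, 1.29 per kb (ratio to other genes 0.806, 95% interval 0.461 to 1.31). The 20S core held 18, 1.96 per kb (ratio 1.23, 95% interval 0.726 to 1.94), and the 19S particle held 17 in 18.3 kb against 9.19 kb, 0.927 per kb (ratio 0.580, 95% interval 0.338 to 0.929). The polymerase genes held 38, 1.08 per kb (ratio 0.675, 95% interval 0.478 to 0.927). Of 4 pairs set directly against each other, the 20S core had 2.11 times the 96-base density of the 19S particle (95% interval 1.03 to 4.36), and 1.14 times with intervals of 50 to 95 bases (95% interval 0.767 to 1.69). A single gene, PRE10, gave 6 of the 18 sites of the 20S core. Without it the core had 1.44 sites per kb, 0.902 of the level of other genes (95% interval 0.466 to 1.58), and 1.56 times the density of the 19S particle (95% interval 0.678 to 3.45). The other 3 pairs, TRiC against the polymerases (1.19), TRiC against the proteasome (1.01) and the polymerases against the proteasome (0.849), had 95% intervals that included 1.

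Within the 19S particle the base held 13 of the 17 sites and the lid 4, at 1.15 and 0.573 per kb. The lid was also low with intervals of 50 to 95 bases, at 0.583 of the level of other genes (95% interval 0.326 to 0.962), while the base was above it at 1.43 (95% interval 1.09 to 1.85). Pol I was the lowest of the polymerases, with 2 sites in 7.47 kb, both in RPA190 (ratio to other genes 0.168, 95% interval 0.0203 to 0.605). Pol II held 12 sites at 1.12 per kb and Pol III 18 sites at 1.26 per kb. The 6 shared subunits are short genes, 2.76 kb together, and their 6 sites gave 2.18 per kb with a wide interval (0.799 to 4.74).

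**Figure D2:**
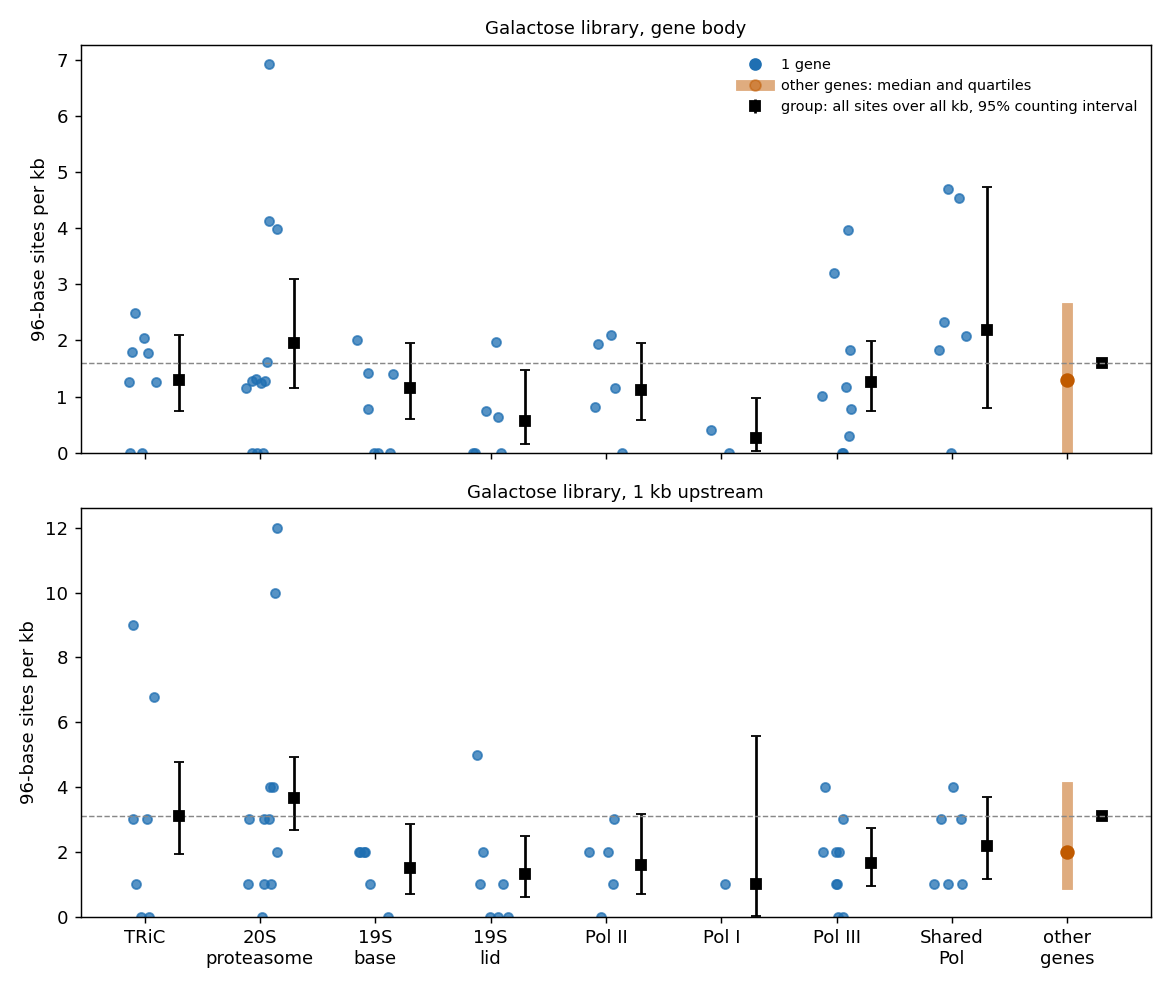
Galactose sites with a 96-base interval per kb in each gene body (top) and in the 1 kb upstream (bottom). Each blue point is 1 essential gene, black squares are all sites of a group over all its kb with a 95% counting interval, the orange bar gives the median and quartiles of the other genes, and the dashed line is their overall level. PRE10 is the highest body at 6.92 per kb, and PUP2 and PRE3 are the highest upstream windows at 12 and 10 per kb.

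Gene by gene, 16 of the 55 bodies had no 96-base site in galactose, 17 had 1, 10 had 2 and 12 had at least 3. RPO31, the largest subunit of Pol III, had 8 in its 4383 bp, and 1 in dextrose. RPO21, the largest subunit of Pol II, had 6 in galactose and 1 in dextrose over its 5202 bp, the longest body in the set. Both form the catalytic core of their enzyme. Per kb they stood at 1.83 for RPO31 and 1.15 for RPO21, on either side of the 1.60 per kb of other genes.

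PRE10, an alpha subunit of the outer ring of the 20S core, had 6 sites in galactose and 1 in dextrose in only 867 bp, positions 1017880 to 1018746 of chromosome XV. That was 6.92 per kb, the highest density of any counted body in the set. Its galactose sites lay at bases 40, 262, 270, 577, 578 and 743 of the gene, so the 6 form 4 separate places. RPN1, a scaffold and ubiquitin receptor of the 19S base, had 6 galactose and 0 dextrose sites in 2982 bp, spread from base 139 to base 2950. RPN2, the other large scaffold of the base, had 4 and 0 in 2838 bp. CCT3, a TRiC subunit, had 4 and 0 in 1605 bp, all within the first 801 bases.

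Over all interval lengths the longest genes led. RPO31 held 39 galactose sites and 2 dextrose sites, and 33 of the positions in galactose had an interval of 50 to 95 bases. RPO21 held 28 and 7, RPA190 22 and 2, RPB2, the second largest subunit of Pol II, 21 and 2, and RPN2 18 and 2. Per kb these 5 bodies ran between 4.40 for RPA190 and 8.90 for RPO31 in galactose. RPA190 joined this group through shorter intervals, since only 2 of its 22 sites had 96 bases.

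At the low end, 3 genes with whole bodies counted had no site of any length in either library: RPN11, the deubiquitinating enzyme of the 19S lid (921 bp), RPB11, which pairs with RPB3 in Pol II (363 bp), and RPC11, the RNA-cleaving subunit of Pol III (333 bp). In galactose 3 of the 55 counted bodies had no site of any length, beside 453 of 5633 in the other genes. A count of 0 allows up to 3 sites in each of these 3 genes. Their upstream windows were not empty. RPN11 had 10 galactose sites of all lengths there and 1 in dextrose, RPB11 had 3 and 1, and RPC11 had 5 and 1.

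RPC40, whose protein binds the Ty1 integrase, had 480 of its 1008 bp counted. One galactose site of 96 bases lay there, at base 71 of the gene (position 746765 of chromosome XVI), with 2 sites over all lengths, and dextrose had 0. Its upstream kb held 3 galactose sites of 96 bases and 10 of all lengths, against 0 and 1 in dextrose. Its partner RPC19 had 1 site of 96 bases in galactose and 1 in dextrose, 2 bases apart, in 429 bp.

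**Figure D3:**
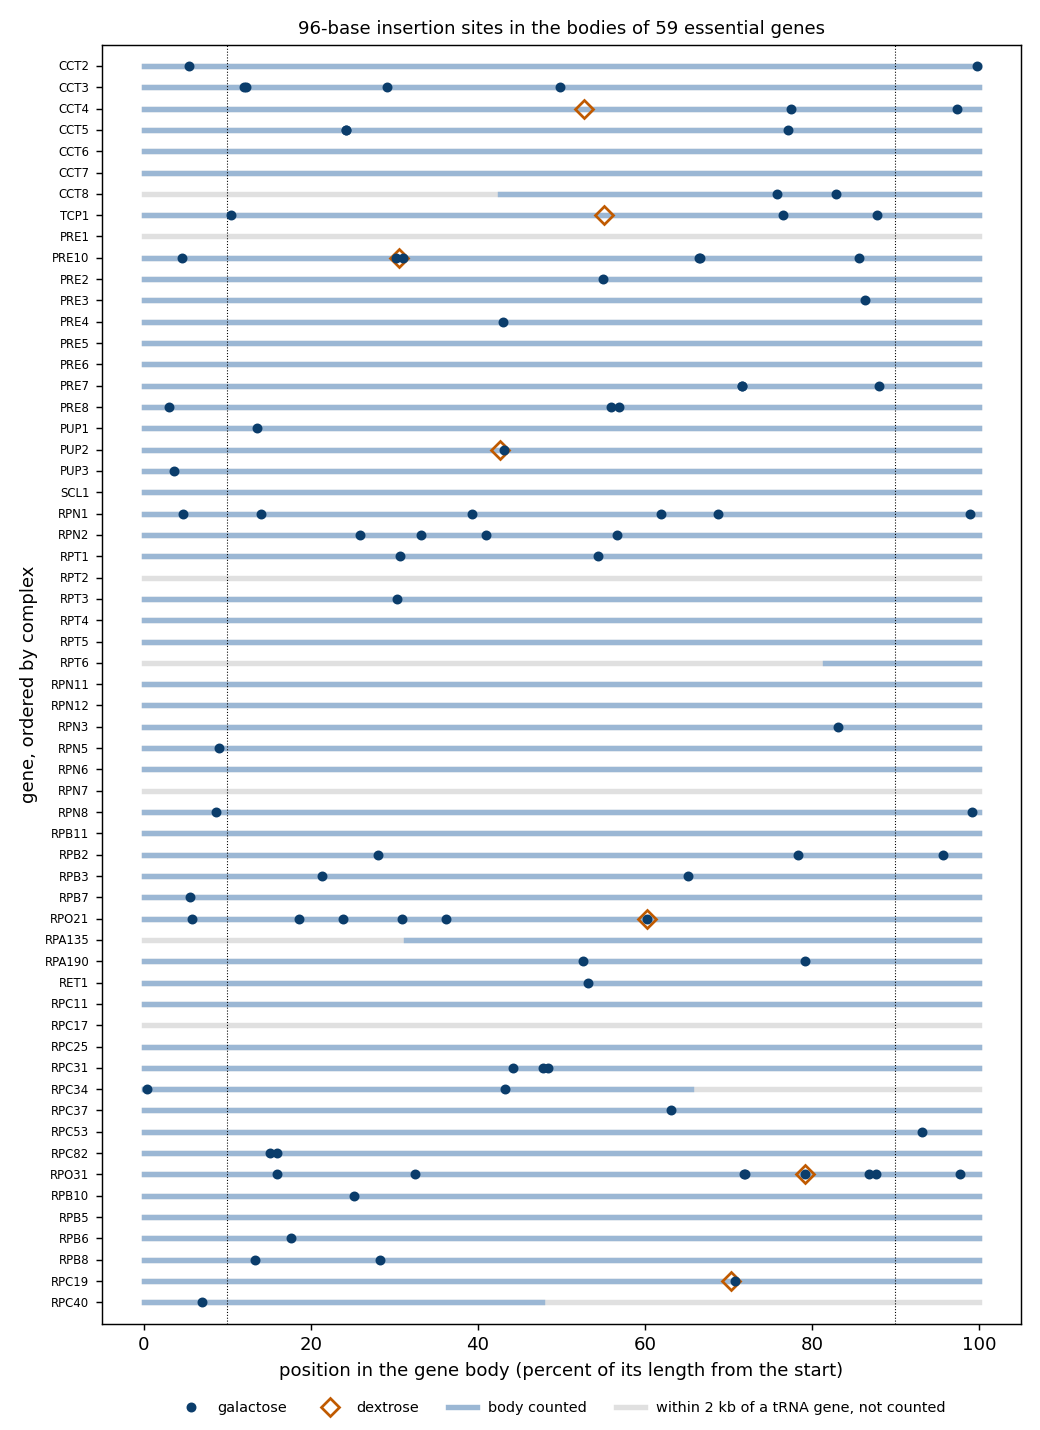
Each row is 1 of the 59 genes drawn from its first to its last base on a percent scale, with galactose sites of 96-base intervals as filled points and dextrose sites as open diamonds. Blue stretches were counted and grey stretches lie within 2 kb of a tRNA gene. Sites lie all along the bodies, and the dotted lines set off the first and last 10%, which hold 18 of the 89 galactose sites and none of the 7 dextrose sites.

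The position within the body bears on whether an insertion would cut a protein short, so each body was divided into its first 10%, its middle and its last 10%. Most 96-base sites in galactose lay in the middle: 71 of 89, 79.8% (95% interval 69.9 to 87.6), with 11 in the first 10% and 7 in the last 10%. In the other coding genes the middle held 72.8%. By the 5′ end of the interval, the essential genes thus had a smaller share of sites near their ends than the other genes. It was 18 of 89 or 20.2% (95% interval 12.5 to 30.1), against 27.2%, which lies within that interval. With the 3′ end as the site the share in the essential genes was 29.5% (31 of 105, 95% interval 21.0 to 39.2). The other genes were not counted that way.

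Per kb, the difference from other genes was larger at the ends than in the middle. The first 10% of the essential bodies held 1.53 sites per kb against 2.44 (ratio 0.627, 95% interval 0.313 to 1.12), the middle 1.18 against 1.45 (ratio 0.812, 95% interval 0.634 to 1.03) and the last 10% 0.913 against 1.96 (ratio 0.465, 95% interval 0.187 to 0.958). Together, both ends gave a ratio of 0.551 (95% interval 0.326 to 0.870). The intervals of ends and middle overlap, and these ratios were not computed with the 3′ end. For intervals of 50 to 95 bases the ratios were 1.15, 1.09 and 1.08 from the first to the last part, with no such gradient.

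The genes behind the end sites can be named, with the 5′ end of the interval as the site. Which end meets the element is not stated, and the 3′ end would move some of these sites to another part or out of the body. The 11 sites in the first 10% lay in CCT2, PRE10, PRE8, PUP3, RPN1, RPN5, RPN8, RPO21, RPB7, RPC34 and RPC40, 1 each. The earliest were at base 4 of RPC34, a Pol III subunit of the initiation subcomplex, and at base 23 of both PRE8 and PUP3, an alpha and a beta subunit of the 20S core. The 7 sites in the last 10% lay in CCT2, CCT4, RPN1, RPN8, RPB2, RPC53 and RPO31. The latest were at base 1581 of the 1584 bp of CCT2 (99.8% of its length), at base 1009 of the 1017 bp of RPN8 (99.2%) and at base 2950 of the 2982 bp of RPN1 (98.9%). The remaining 71 sites lay in the middle part, from 10.45% of the length in TCP1 to 88.09% in PRE7. Among them were base 476 of PRE2, a catalytic beta subunit, at 55.0% of its length, and base 1834 of RET1, the second largest subunit of Pol III, at 53.1%.

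Of the 89 sites 44 lay on the strand of the gene and 45 on the opposite strand, 49.4% on the same strand (95% interval 38.7 to 60.3). In the upstream windows 55 of 120 lay on the same strand, 45.8% (95% interval 36.7 to 55.2), and over all lengths 44.5% did (95% interval 39.4 to 49.8). Among shorter intervals, 43.9% of the body sites of 50 to 95 bases lay on the strand of the gene (95% interval 38.2 to 49.7), as did 24.0% of the 25 upstream sites of at most 49 bases (95% interval 9.36 to 45.1). The upstream sites of 50 to 95 bases (46.1%) and the 12 body sites of at most 49 bases (58.3%) had intervals that included an even split. Strand shares were not counted in the other genes, so a strand preference particular to the essential genes was not tested. Close sites were about as common as elsewhere: 16 of the 89 had another 96-base site within 10 bases, 18.0% (95% interval 10.6 to 27.6), against 21.2% in the other coding stretches. Counting such neighbours as 1 gave 81 separate places.

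Upstream of the genes, beyond 2 kb of tRNA genes, the 96-base sites were again fewer than at other genes. The 53 windows of 1 kb held 120 in galactose, 2.28 per kb (95% interval 1.89 to 2.73), against 3.09 per kb at the other genes, a ratio of 0.738 (95% interval 0.612 to 0.883). The direction depended on the distance rule: with no distance kept from tRNA genes the ratio was 1.13 (95% interval 1.04 to 1.23). At least 1 was found in 43 of the 53 windows, where 82.6% of all coding genes had one, and the median window held 2 sites among the essential and the other genes alike. Sites of 50 to 95 bases numbered 230 (ratio 1.02, 95% interval 0.890 to 1.16), in 51 windows beside 91.6% of all genes. Over all lengths there were 366 sites in 52 windows, beside 96.6% of all genes, and the ratio was 0.901 (95% interval 0.811 to 0.998). The interval of that ratio included 1 under 7 of its 14 alternatives, and with no distance kept from tRNA genes the ratio was 1.20. Intervals of at most 49 bases gave 25 sites in 18 windows, beside 30.1% of all genes.

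The shortfall was greatest next to the start codon. Between 1 and 250 bp upstream there were 27 sites of 96 bases, 2.06 per kb against 3.37 (ratio 0.613, 95% interval 0.404 to 0.892). Between 251 and 500 bp there were 38 (ratio 0.739, 95% interval 0.523 to 1.01), and between 501 and 1000 bp there were 55 (ratio 0.819, 95% interval 0.617 to 1.07). Over all lengths the nearest stretch held 72 sites (ratio 0.658, 95% interval 0.515 to 0.829), and the 2 farther ones had ratios of 0.952 and 1.02. Intervals of 50 to 95 bases were also fewer in the nearest stretch, with 43 sites (ratio 0.728, 95% interval 0.527 to 0.981). The intervals of the 96-base ratios overlap between the 3 stretches. Confined to upstream bases outside every coding gene, the 96-base ratio was 0.715 (79 sites, 95% interval 0.566 to 0.891).

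**Figure D4:**
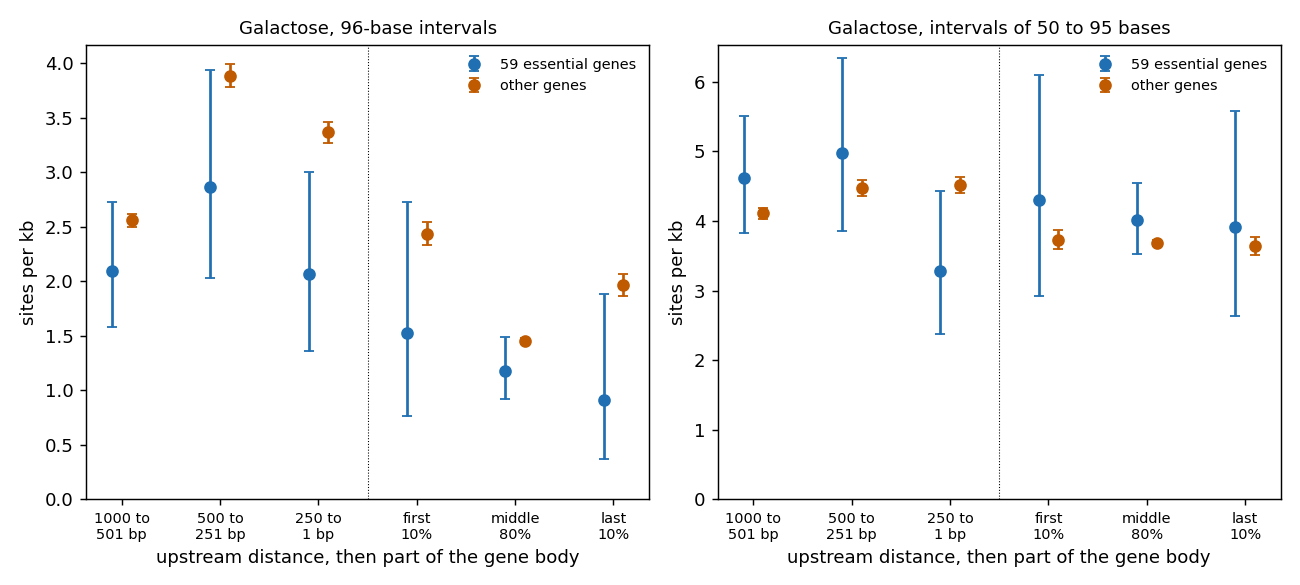
Galactose sites per kb along the gene, from the far end of the upstream kb (left) through the 3 parts of the body (right), for the 59 essential genes (blue) and the other coding genes (orange), with 95% counting intervals. With 96-base intervals (left panel) blue lies below orange in all 6 parts, by most in the 250 bp before the start and at the ends of the body. With 50 to 95 bases (right panel) blue lies below orange only in the 250 bp before the start.

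Upstream, the complexes stood in the same order as in the bodies. Without PUP2 the ratio of the 20S core to other genes was 0.941, below that of TRiC with all its genes. CCT7 alone held 9 of the 21 TRiC sites, and TRiC was not recomputed without it. The 20S core had 44 upstream sites of 96 bases in 12 windows (ratio to other genes 1.19, 95% interval 0.862 to 1.59), and TRiC had 21 in 7 (ratio 1.01, 95% interval 0.624 to 1.54). The polymerases had 37 in 21 windows (ratio 0.570, 95% interval 0.401 to 0.786) and the 19S particle 18 in 13 (ratio 0.454, 95% interval 0.269 to 0.717). The 20S core thus had 2.61 times the density of the 19S particle (95% interval 1.48 to 4.81), 2.07 times without PUP2 (95% interval 1.13 to 3.92), and 1.98 times over all lengths (95% interval 1.44 to 2.75). The polymerase windows were low even without the coding bases, with 23 sites and a ratio of 0.481 (95% interval 0.305 to 0.721).

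A few windows carried much of the 20S count. PUP2, an alpha subunit, had 12 galactose sites of 96 bases between 38 and 864 bp before its start, and 0 in dextrose. PRE3, a catalytic beta subunit, had 10 and 0, all between 208 and 561 bp. CCT7, a TRiC subunit, came next with 9 and 0, placed at 16 to 41, 291 to 300 and 373 to 378 bp before the start. The body of CCT7 had no 96-base site in either library. RPN11 had 5 and 0, all at 600 bp or farther, and TCP1, another TRiC subunit, had 5 and 0 in the 738 bp that could be counted.

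Counting all lengths brought in windows rich in shorter intervals. PRE3 led with 18 galactose sites and 0 in dextrose, PUP2 had 17 and 1, RPB8, a subunit that all 3 polymerases share, 16 and 1, and TCP1 13 and 1. CCT7 had 12 and 2, PRE5, another alpha subunit of the 20S core, 12 and 1, and RPC31, a Pol III subunit, 12 and 0. For RPB8 and RPC31 most of these came from intervals of 50 to 95 bases, 12 and 10 of them. At the other extreme the kb before RPO21 held no site of any length in either library, and the 5 Pol II windows together held 14 in galactose (ratio to other genes 0.362, 95% interval 0.198 to 0.608).

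Non-essential partners of the same complexes gave a second yardstick. Losing one of them is tolerated, and their list took 11 subunits (10 with counted positions) and 18 associated factors, among them the prefoldin subunits that pass unfolded chains to TRiC and the chaperones that assemble the proteasome. The essential genes held 0.692 times the 96-base density of the non-essential subunits in galactose (89 sites against 12, 95% interval 0.377 to 1.39), an interval that includes 1. The median gene went the other way, with 1.25 sites per kb among the essential genes and 0.801 among the non-essential subunits. Among the factors the median was higher, at 2.02 per kb. For the sums over all kb, other settings and lists gave further ratios. With the 3′ end of the interval as the site the ratio was 0.544 (95% interval 0.328 to 0.954). Against the factors it was 0.614 (89 against 43, 95% interval 0.422 to 0.905), and against both together 0.631 (95% interval 0.446 to 0.899). With intervals of 50 to 95 bases the essential genes were lower than the subunits to the same degree, at 0.690 (95% interval 0.497 to 0.981), close to the factors at 0.976 (95% interval 0.771 to 1.25), and at 0.888 of both (95% interval 0.722 to 1.10). Over all lengths the ratio to both was 0.826 (95% interval 0.692 to 0.988), and upstream with 96 bases it was 0.932 (95% interval 0.687 to 1.27).

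Of these 28 partners with counted positions 18 had a 96-base body site in galactose, 64.3% beside the 74.7% of all coding genes. RPN14, HSM3 and NAS6, chaperones that assemble the 19S base, had 7, 5 and 3, and ADD66, a chaperone of the 20S core, had 6 in 804 bp. The prefoldin subunits GIM3 and GIM4 had 4 in 390 bp and 3 in 424 bp, and 3 other prefoldin subunits, GIM5, PFD1 and YKE2, had none. Among non-essential subunits RPN13, a ubiquitin receptor, had 3 in 471 bp and PRE9, the one dispensable alpha subunit, had 3 in 777 bp. Long factors were sparse, with 6 sites in 6432 bp of BLM10 and 2 in 5607 bp of ECM29. Among the rest, NAS2, PBA1, RPA49, RPN9 and RPN10 had 2 each, and IRC25, UMP1 and PAC10 had 1 each, while POC4, UBP6, RPA12, RPA14, RPA34, RPB4 and RPB9 had none. In these partners 38.2% of the 55 sites lay in the first or last 10% (95% interval 25.4 to 52.3), against the 20.2% (95% interval 12.5 to 30.1) of the essential genes, and these intervals overlap.

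The stretches close to tRNA genes were left out of all counts above and are described apart, because they hold so many sites. In 9 of the essential genes some or all of the body lay within 2 kb of a tRNA gene, 7.40 kb in all. These stretches held 50 galactose sites of 96 bases, 6.76 per kb (95% interval 5.02 to 8.91), against 15.5 per kb in the like stretches of 656 other coding genes, with medians of 2.28 and 7.15 per kb. The distance and side of the tRNA gene were not matched between the 2 sets. Over all lengths the stretches of the essential genes held 118 galactose sites, 15.95 per kb (95% interval 13.2 to 19.1) against 25.77. Dextrose had 1 site there.

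The sites were unevenly spread over those 9 genes. RPC17, a Pol III subunit needed to start transcription, held 22 galactose sites and 1 dextrose site in 486 bp (positions 414285 to 414770 of chromosome X). It lies 196 bp from the tRNA gene YNCJ0018W, on its upstream side, and its sites ran from base 75 to base 486, with 16 in the middle part and 6 in the last 10%. RPN7, a lid subunit of the 19S particle, held 17 and 0 in 1290 bp (positions 742454 to 743743 of chromosome XVI), 541 bp from YNCP0016W and again upstream of it. Of those 17 sites 15 lay in the middle part. The 45.3 and 13.2 sites per kb of RPC17 and RPN7 exceeded every other body of the 59 genes, PRE10 included.

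The other near stretches had few galactose sites of 96 bases. RPA135, the second largest subunit of Pol I, had 5 in 1135 bp and RPC34 had 2 in 329 bp. RPT2, an ATPase of the 19S base, had 3 in 1314 bp although it lies 194 bp from a tRNA gene, on its downstream side. CCT8 had 1 in 727 bp, and PRE1, RPT6 and RPC40 had none of 96 bases. Over all lengths PRE1, RPT6 and RPC40 held 3, 3 and 1 galactose sites there. RPC40 and RPN7 flank the same tRNA gene, RPC40 on the downstream side at 1473 bp. Dextrose had 0 sites of 96 bases in all 8 genes other than RPC17.

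In dextrose, counts were far lower. The essential bodies held 7 sites of 96 bases, 0.0931 per kb against 0.0704 per kb in the other genes (ratio 1.32, 95% interval 0.532 to 2.72). These lay in CCT4, TCP1, PRE10, PUP2, RPO21, RPO31 and RPC19, 1 each, so 12.7% of the 55 genes had one, beside 9.14% of all coding genes. All 7 were in the middle part, between 30.5% of the length in PRE10 and 79.2% in RPO31, where the middle part held 79.2% of the 577 sites in other genes. Over all lengths there were 67 sites in 37 genes, 67.3% beside 54.2% of all coding genes (ratio 1.25, 95% interval 0.966 to 1.58), of which 3 lay in the first 10%, 64 in the middle and 0 in the last 10%. Both ends together thus held 4.48% (95% interval 0.933 to 12.5), against 17.8% in the other genes. In galactose over all lengths they held 20.05% (95% interval 16.21 to 24.35), against 22.31%. The dextrose shares use the 5′ end and were not counted with the 3′ end. By class in dextrose, intervals of 50 to 95 bases gave 59 sites in 35 genes, beside 50.2% of all coding genes. Intervals of at most 49 bases gave 1 site, in CCT3, beside 2.6%. Of the 67 sites of all lengths the 20S core had 14 (ratio 2.13, 95% interval 1.16 to 3.57) and the 19S particle 12 (ratio 0.915, 95% interval 0.473 to 1.60). Upstream there were 2 sites of 96 bases, at RPB11 and RPT1 (8.44% of all coding genes had one), 0.0381 per kb against 0.0970 per kb (ratio 0.392, 95% interval 0.0475 to 1.42). Over all lengths there were 39 in 33 windows (48.9% of all coding genes), a ratio of 1.00 (95% interval 0.714 to 1.37). Of those, 36 had an interval of 50 to 95 bases, in 31 windows beside 43.7% of all coding genes, and 1 at most 49 bases, at PRE5, beside 2.3%.

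As a share of all sites beyond 2 kb of tRNA genes, the essential bodies took 0.568% in galactose (95% interval 0.513 to 0.627) and 0.840% in dextrose (95% interval 0.652 to 1.07). With 96 bases the shares were 0.371% (95% interval 0.298 to 0.456) and 0.739% (95% interval 0.298 to 1.52), intervals that overlap. With 50 to 95 bases they were 0.701% and 0.872%. Over all lengths, coding stretches of every gene together also made up more of the dextrose library. They had 5918 of its 7974 sites beyond 2 kb, against 44115 of 69370 for galactose. Per kb, the ratio of essential bodies to other genes was 0.981 in galactose (95% interval 0.886 to 1.08). In dextrose it was 1.25 (95% interval 0.966 to 1.58), and both intervals include 1. A change particular to the essential genes was not tested. Intervals of 96 bases were 43.6% of the galactose library and 25.1% of the dextrose library, and the part of this make-up in the difference over all lengths was not tested.

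Positions recurred between the libraries. Of the 67 dextrose sites in essential bodies 42, or 62.7% (95% interval 50.01 to 74.2), were also galactose sites at the same base and strand, against 49.2% of all dextrose sites in coding stretches beyond 2 kb of tRNA genes. Nearly all were of intermediate length, 40 of 59, while 1 of the 7 sites of 96 bases recurred exactly, in RPO21 at position 207427 of chromosome IV. Another 4 of the 7 lay next to a galactose site of 96 bases: 2 bases away in RPC19, 3 in PRE10 and in RPO31, and 4 in PUP2, on the opposite strand in PRE10 and RPO31. In CCT4 and TCP1 the nearest lay 394 and 359 bases away. In the other coding genes 152 of 577 dextrose sites, 26.3%, had a galactose site within 10 bases, against 5 of 7 here (95% interval 29.0 to 96.3). The libraries were read in the same run and lane, and the part of this in the recurrence was not tested.

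Certain interval lengths stood out among the dextrose sites. Intervals of 78 bases made up 19 of the 72 in essential bodies, 26.4% (95% interval 16.7 to 38.1), and intervals of 54 bases 15, 20.8% (95% interval 12.2 to 32.0), against 6.68% and 5.53% of the galactose intervals there. In the other coding stretches of the dextrose library these lengths made up 18.9% and 23.8%, so they were about as common outside the essential genes. Over the nuclear genome 87.9% of the 78-base and 53.4% of the 54-base dextrose sites were galactose sites as well, against 57.1% of all dextrose sites.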

How the data were processed

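Ty1 insertion libraries were made, per the labels' protocols, by cutting genomic DNA with MseI, ligating an adaptor, cutting with BglII, amplifying from the SSB primer site to the adaptor, and keeping products of 200 to 1000 bp. The submitters' processing notes name Picard 3.4.0, bedtools 2.31.1, SAMtools 1.22, BWA 0.7.19 and Trimmomatic 0.39 on R64 (sacCer3), and the settings used are not given in these sources. The authors deposited aligned read intervals with a mapping score between 30 and 60, without normalization, and per the names of the deposited files duplicates were removed. Which end of an interval meets the element is not stated, and the 5′ end was used.

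Sites were counted with Python 3.11.15, pandas 2.3.3, numpy 2.4.6 and scipy 1.17.1, and the figures were drawn with matplotlib 3.10.9. Genes came from the RefSeq table of R64, with strand from the systematic name and 1-based positions. A site under overlapping genes or windows counted for each of them, and once in shares of a library. Intervals over 96 bases (306 in galactose, 18 in dextrose) entered only counts over all lengths. Counts carry exact Poisson, shares exact Clopper-Pearson and ratios between sets exact conditional 95% intervals, while ratios to the other genes carry the Poisson interval of the members' count. All cover counting error alone, because reads amplified without molecular tags may share a template. Up to 3 sites were allowed for where none was counted. The counting was tested on simulated sites of known density, drawn independently and at an even level outside the members. That checks the calculation of the ratio and not the counting intervals, since real sites often lie close together. No base sequence was used, so MseI sites and mappability were not taken into account.

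The genes and lists were chosen with earlier results of these data known. Named in full were the 5 genes with the most sites per window and length class in galactose (ties kept), genes with no body site, with a 96-base body site in dextrose, or within 2 kb of a tRNA gene, and RPC40.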

Additional observations from a re-analysis of the deposited data

How the results depend on the processing

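The 8 main ratios and shares were recomputed under 17 settings, at most 14 for any of them, which gave 94 values. Of these 82 stayed within the counting interval of the value reported, among them 4 that counting intervals in place of sites cannot change, since no 96-base site has more than 1 interval. The ratio of 96-base sites in essential bodies stayed between 0.665 and 0.819 in all of its alternatives, the highest with 5 kb kept from tRNA genes (95% interval 0.648 to 1.02, which includes 1). With no distance kept from tRNA genes the upstream ratios turned round, to 1.13 with 96 bases and 1.20 over all lengths, and the shares in essential bodies were 0.337% in galactose and 0.607% in dextrose. With at least 2 intervals per site the body ratio over all lengths was 1.09 and the shares were 0.768% in galactose and 1.70% in dextrose, and no value with 96 bases could be had. The galactose share was 0.649% with the 3′ end of the interval and 0.512% without RPO31. The dextrose share was 0.594% without sites present in both libraries. The upstream ratio over all lengths was 0.810 in a window of 500 bp, and end zones of 20% held 41.6% of the 96-base body sites. The cause of these shifts was not tested, except that the wider zones cover more bases. Alternatives chosen after seeing the data were a level of other genes taken by body length (96-base body ratio 0.706), merging close sites of either strand (0.766), leaving out the 1% of genes with the most sites per kb (body 0.776, upstream 0.793), and leaving out PRE10 or PUP2. No paired analysis was possible because each medium has 1 library and no test was made. The 7 dextrose sites of 96 bases in these bodies leave wide intervals on every 96-base value of that library.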
